A study of Mus musculus with 4 samples.

Results

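The 10 genes described here encode enzymes that make and break down nicotinamide adenine dinucleotide (NAD) and degrade tryptophan: *Qprt*, *Haao*, *Kmo*, *Kynu*, *Acmsd*, *Afmid*, *Naprt*, *Nampt*, *Nmnat1* and *Nnmt*. They were chosen by name from the 32285 genes listed for every section, and all 10 were found once. Expression was measured with 10x Visium spatial transcriptomics, in which a tissue section is laid over barcoded spots and every captured RNA molecule gets a unique molecular identifier (UMI). A spot covers a small region that can hold several cells. The sections were cut at 10 µm from snap-frozen left kidneys of male wild-type C57BL/6J mice aged 7 to 8 weeks, 2 sections from normal control kidneys and 2 from kidneys taken 24 h after 30 min of bilateral renal ischemia. The labels do not give the mouse of each section, and the study describes technical replicates. Sections of 1 group may therefore share a mouse, and p-values then do not measure the spread between mice.

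NAD carries electrons in energy metabolism and is consumed by poly(ADP-ribose) polymerases and sirtuins, so cells renew it all the time. It can be built de novo from tryptophan through the kynurenine pathway, from nicotinate, or by salvage of nicotinamide. The proximal tubule, which reabsorbs most of the filtrate and depends on mitochondrial oxidation, is one of the few sites outside the liver where the de novo route is complete.

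*Afmid* (ENSMUSG00000017718), arylformamidase, hydrolyses N-formylkynurenine to kynurenine and lies at chr11:117825924-117839908 of GRCm38. *Kmo* (ENSMUSG00000039783, chr1:175620381-175662116), kynurenine 3-monooxygenase, sits in the outer mitochondrial membrane. *Kynu* (ENSMUSG00000026866, chr2:43555329-43682715), kynureninase, yields 3-hydroxyanthranilate, the substrate of *Haao* (ENSMUSG00000000673, chr17:83831156-83847963), a dioxygenase. The product of Haao is where the pathway forks. *Acmsd* (ENSMUSG00000026348, chr1:127729413-127767978), a decarboxylase, diverts it to oxidation, whereas *Qprt* (ENSMUSG00000030674, chr7:127107114-127122226) turns the quinolinate that forms spontaneously into nicotinate mononucleotide. *Naprt* (ENSMUSG00000022574, chr15:75890956-75894481) starts the nicotinate route. *Nmnat1* (ENSMUSG00000028992, chr4:149467572-149485202) is the nuclear enzyme of the adenylyl transfer that all routes share. *Nampt* (ENSMUSG00000020572, chr12:32819545-32853349) is the rate-limiting enzyme of nicotinamide salvage, and *Nnmt* (ENSMUSG00000032271, chr9:48591877-48605153) methylates nicotinamide and thereby removes it. All 10 are protein-coding genes in GENCODE's annotation. Another annotated gene overlaps 6 of them, on the same strand for *Afmid*, *Naprt* and *Nampt*, and counts of those 3 are therefore less certain.

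RefSeq promoters of GRCm38.p6 were matched for 7 of the 10 genes, and 3 are shown because their genes stand for different responses below: *Haao* and *Qprt*, which fell more in the outer stripe than in the cortex, and *Nampt*, which rose. The windows of *Haao* and *Nampt* lie inside the GENCODE bounds given above, and that of *Qprt* lies partly inside. Each line gives the 250 bases before the RefSeq start, read 5′ to 3′ on the gene's strand, with CG dinucleotides in capitals.
*Haao* (chr17:83846791-83847040, minus strand): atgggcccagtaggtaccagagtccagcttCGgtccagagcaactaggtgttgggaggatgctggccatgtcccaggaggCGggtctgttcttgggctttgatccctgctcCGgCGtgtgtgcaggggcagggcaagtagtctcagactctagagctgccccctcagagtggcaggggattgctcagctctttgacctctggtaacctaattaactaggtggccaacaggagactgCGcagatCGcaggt
*Qprt* (chr7:127122030-127122279, minus strand): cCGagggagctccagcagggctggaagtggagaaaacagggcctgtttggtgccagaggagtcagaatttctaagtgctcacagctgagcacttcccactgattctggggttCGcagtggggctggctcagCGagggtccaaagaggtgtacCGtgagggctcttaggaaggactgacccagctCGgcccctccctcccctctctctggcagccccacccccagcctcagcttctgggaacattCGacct
*Nampt* (chr12:32820085-32820334, plus strand): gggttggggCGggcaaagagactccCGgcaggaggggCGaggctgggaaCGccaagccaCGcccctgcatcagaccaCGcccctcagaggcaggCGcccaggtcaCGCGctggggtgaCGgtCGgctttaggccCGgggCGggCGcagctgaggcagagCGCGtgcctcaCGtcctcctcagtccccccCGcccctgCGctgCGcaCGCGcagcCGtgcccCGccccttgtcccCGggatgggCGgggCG
The windows of *Haao* and *Qprt* held 6 CG dinucleotides each and that of *Nampt* 27, against a median of 6 (quartiles 2 and 16) over all 32851 RefSeq windows. The windows of *Kmo* and *Afmid* held 5 and 15, and the pair of windows of *Nmnat1* 24 and 23.

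Depth ranged from 25957128 to 44528078 UMIs per section over 2401 to 2682 tissue spots, 10312 spots in all. The injury label was checked with *Havcr1*, the kidney injury molecule of proximal tubules, which had 43 and 59 UMIs in the normal and 43731 and 36668 in the ischemic sections, and with *Lcn2*, which had 219 and 220 against 94901 and 94111. The kidney label was checked with 6 proximal tubule markers (*Lrp2*, *Cubn*, *Slc27a2*, *Gatm*, *Slc13a3* and *Pdzk1*), all detected in every section. Their summed level was 4733 and 3905 CPM (counts scaled to a common library total, here after edgeR's TMM scaling) in the normal and 1117 and 1055 CPM in the ischemic sections, and all 6 were lower in ischemia with a median log2 fold change of -2.18. Neutrophil markers moved the other way, from 1.71 and 2.17 CPM to 162 and 161 CPM, with *Ly6g* and *Mmp8* at 0 in both normal sections. Adipocyte markers fell from 450.2 and 194 CPM to 6.62 and 6.25 CPM. Hepatocyte markers, a check on liver carry-over since liver also expresses the kynurenine enzymes, were at 33.0 and 25.8 CPM and 8.39 and 7.75 CPM, with *Ahsg* at 0 in 3 sections. In whole sections, fewer cells of a type and less RNA per cell cannot be told apart.

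The first comparison asked how the 10 genes differed between ischemic and normal kidneys over whole sections. *Acmsd* and *Haao* had the lowest log2 fold changes of the 10, *Kmo*, *Afmid* and *Qprt* were lower too, and *Nampt* was higher. Of the 10 genes, 7 were lower, 2 were higher and *Kynu* did not pass the threshold (edgeR quasi-likelihood test, Benjamini-Hochberg adjusted p under 0.05). Of all 15305 genes tested, 60.6% passed, 31% higher and 29.7% lower. The members' median log2 fold change was -1.39 and that of all genes tested 0.04. All 10 passed the filter on low counts. For all 10 the normal and ischemic sections did not overlap, as was also so for other genes such as *Gatm* and *Umod*. The share of all genes without overlap was not counted, so this count is not a result about the 10. With scaling by library size alone, 5750 genes were higher and 2829 lower, in place of 4737 and 4542, and the median of all genes was 0.31.

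Levels are CPM after TMM scaling, unless stated otherwise. *Acmsd* was at 63.9 and 48.9 CPM in the normal and at 4.74 and 3.32 CPM in the ischemic sections (56.4 ± 10.7 against 4.03 ± 1.01, SD, n = 2), which left 7.14% of the normal level. Its log2 fold change was -3.80 (SE 0.19, edgeR adjusted p = 5.4e-07). *Haao* had 289 and 213 CPM against 28.4 and 24.8 CPM, or 10.6% of normal, with a log2 fold change of -3.24 (SE 0.17, edgeR adjusted p = 8e-07). The fall of *Acmsd* was larger than that of each of the 6 proximal tubule markers, which ranged from -1.23 for *Slc13a3* to -3.49 for *Gatm*, and that of *Haao* lay inside this range; the differences between genes were not tested.

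*Kmo* and *Afmid*, of the earlier steps, were lower in both ischemic sections than in both normal ones. *Kmo* was at 32.1 and 26.6 CPM in the normal and at 5.51 and 4.29 CPM in the ischemic sections, a log2 fold change of -2.58 (SE 0.15, edgeR adjusted p = 1.2e-06). *Afmid* was at 43.2 and 33.2 CPM and at 7.83 and 6.88 CPM, a log2 fold change of -2.38 (SE 0.15, edgeR adjusted p = 1.8e-06). *Kynu* had few UMIs, 75 and 38 UMIs in the normal and 43 and 26 in the ischemic sections, or 2.03 and 1.38 CPM against 1.27 and 0.91 CPM. Its log2 fold change of -0.65 (SE 0.30) had an edgeR adjusted p of 0.091. It passed in 2 of 11 alternatives, without normal section 2 (-0.91, adjusted p = 0.0043, the lowest of them) and with the replicate number as a block (adjusted p = 0.042).

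*Qprt*, which commits quinolinate to NAD, had 91.5 and 68.2 CPM in the normal and 23.9 and 23.1 CPM in the ischemic sections (log2 fold change -1.76, SE 0.14, edgeR adjusted p = 8.6e-06), so 29.5% of its normal level remained. The later and alternative steps moved less. *Naprt* had 40.6 and 35.7 CPM against 19.5 and 18.3 CPM, a log2 fold change of -1.01 (SE 0.10, edgeR adjusted p = 3.7e-05). *Nmnat1* had 15.0 and 13.7 CPM against 10.3 and 10.4 CPM (log2 fold change -0.47, SE 0.11, edgeR adjusted p = 0.0049). The *Nmnat1* call was lost without ischemic section 1 (adjusted p = 0.063), without ischemic section 2 (adjusted p = 0.053) and with scaling by library size alone (log2 fold change -0.20, adjusted p = 0.38), the highest of 11 alternatives.

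Like *Nnmt* below, the salvage enzyme *Nampt* was higher in ischemia. It was at 73.1 and 74.9 CPM in the normal and at 113 and 118 CPM in the ischemic sections, a log2 fold change of 0.64 (SE 0.10, edgeR adjusted p = 0.0006). The markers of neutrophils, which also express *Nampt*, had moved in the same direction. The part of neutrophils in the *Nampt* change was not tested. Leaving out the 446 and 371 spots of the ischemic sections and the 3 and 2 spots of the normal sections that held at least 3 UMIs of the neutrophil list gave a log2 fold change of 0.72 (edgeR adjusted p = 0.0003), within adjusted p-values of up to 0.021 over 11 alternatives.

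*Nnmt* had 4.88 and 4.31 CPM in the normal and 6.07 and 6.25 CPM in the ischemic sections (log2 fold change 0.42, SE 0.16, edgeR adjusted p = 0.047). Adipocytes are known for high *Nnmt* expression, and the adipocyte list was at 450.2 and 194 CPM in the normal but 6.62 and 6.25 CPM in the ischemic sections. When the 116 and 50 spots of the normal sections with at least 10 UMIs of the adipocyte list were left out, a choice made after seeing the data that removed no ischemic spot, the log2 fold change became 1.06 (edgeR adjusted p = 0.0019). The *Nnmt* call did not hold without normal section 2 (adjusted p = 0.083), ischemic section 1 (0.18) or ischemic section 2 (0.23), with the neutrophil spots left out (0.091) or in DESeq2 (0.20), so 6 of 11 alternatives kept it.

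**Figure D1:**
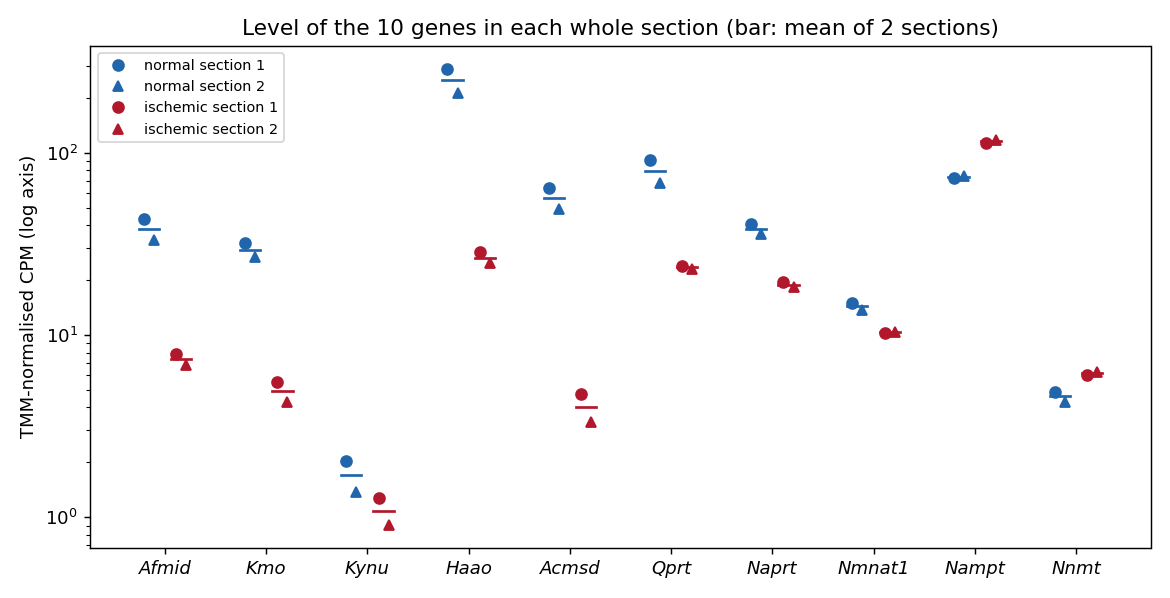
TMM-normalised CPM (log axis) of the 10 genes in each whole section, in the order of the pathway, with normal sections in blue, ischemic sections in red and a bar at the mean of the 2 sections of a group. Every blue pair lies above its red pair except for *Nampt* (73.1 and 74.9 CPM against 113 and 118 CPM) and *Nnmt*.

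The share of spots with a UMI gave the same picture at equal depth. After each spot was thinned to 2000 UMIs, which left out 48 to 150 shallower spots per section, *Haao* was found in 33.6% and 30.4% of normal spots and in 5.42% and 5.18% of ischemic spots. The 95% Clopper-Pearson intervals were 31.8 to 35.5% and 28.6 to 32.2% against 4.54 to 6.42% and 4.35 to 6.12%, and cover counting error only. Before thinning, the shares were 83.1% and 67.6% against 27.0% and 19.4%. Thinned shares of *Acmsd* were 9.85% and 9.36% against 1.15% and 0.68%. For *Nampt* they were 11.1% and 14.8% in the normal sections against 22.4% and 23.4% in the ischemic sections.

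The next question was where in the normal kidney the genes were expressed. Marker lists that did not include the 10 genes placed every spot in 1 of these zones: cortex, outer stripe, inner stripe (both of the outer medulla), inner medulla and pelvis. Counts were summed per section and zone. The convoluted part of the proximal tubule lies in the cortex and its straight end in the outer stripe. *Acmsd* and *Afmid* were cortical, *Haao* was highest in the outer stripe, and *Kmo*, *Qprt*, *Naprt*, *Nmnat1* and *Nampt* did not differ detectably between the cortex and the outer stripe. Exceptions were *Qprt* without normal section 1 (log2 difference 0.33, edgeR adjusted p = 0.0064), and *Qprt* (0.046) and *Nampt* (0.045) with zones taken from the spot alone.

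For outer stripe against cortex in the normal sections, 4 of the 10 genes passed the threshold, 1 higher and 3 lower, beside 22.8% of 14174 genes tested (12.5% higher and 10.3% lower). *Acmsd* was at 127 and 102 CPM in the cortex and at 28.9 and 25.7 CPM in the outer stripe, 4.37- and 3.96-fold lower in the 2 sections, with a log2 difference of -2.06 (SE 0.09, edgeR adjusted p = 5.9e-12). *Afmid*, with 83.5 and 63.9 CPM in the cortex and 20.7 and 22.5 CPM in the outer stripe, had a log2 difference of -1.78 (SE 0.14, edgeR adjusted p = 8.9e-09). *Haao* was at 305 and 233 CPM in the cortex and at 431 and 371 CPM in the outer stripe (log2 difference 0.59, SE 0.15, edgeR adjusted p = 0.005). *Kynu* had 3.56 and 2.48 CPM in the cortex and 1.46 and 0.90 CPM in the outer stripe (log2 difference -1.34, SE 0.45, edgeR adjusted p = 0.042). The calls of *Haao* and *Kynu* were lost in DESeq2 (adjusted p = 0.071 and 0.21) and without either ischemic section. Without the section block the edgeR adjusted p-values were 0.24 for *Haao* and 0.074 for *Kynu*. The call of *Kynu* was lost without normal section 1 too.

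Deeper in the normal kidney, most of the genes were lower. For inner stripe against cortex, 7 of the 10 were lower and *Nampt* was higher, beside 29.2% of all genes called (15% lower and 14.2% higher). For inner medulla against cortex, 8 were lower and *Nnmt* was higher, beside 40.2% (20.6% lower and 19.6% higher). *Nampt* was at 97.7 and 120 CPM in the inner stripe, where the thick ascending limb lies, against 78.2 and 75.5 CPM in the cortex, a log2 difference of 0.49 (SE 0.14, edgeR adjusted p = 0.011). *Nnmt* was at 41.5 and 10.7 CPM in the inner medulla against 3.75 and 2.96 CPM in the cortex, a log2 difference of 2.81 (SE 0.39, edgeR adjusted p = 8.1e-06), and the 2 inner medulla values lay far apart. The adipocyte markers differed in the same way, at 4806 and 594 CPM in the inner medulla of normal sections 1 and 2, and without the adipocyte-rich spots the log2 difference was 1.67 (edgeR adjusted p = 0.0096, the highest of 14 alternatives).

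Among the lower calls, that of *Haao* in the inner stripe (log2 difference -0.46, edgeR adjusted p = 0.028) was lost in 6 of 14 alternatives, without normal section 2 at -0.15 (0.17). In the inner medulla those of *Nmnat1* (0.074 and 0.069 without normal sections 1 and 2), *Nampt* (0.12 without normal section 1) and *Naprt* (0.27 without normal section 2) were lost too. That of *Nampt* was lost in 5 of 14 alternatives, with library size scaling at a log2 difference of -0.12 (adjusted p = 0.63), where *Naprt* (0.38) and *Nmnat1* (0.24) did not pass either.

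The spots scored as inner stripe were not alike in the 2 normal sections. *Haao* was at 274 and 130 CPM and *Qprt* at 82.2 and 39.8 CPM there, while the proximal tubule markers summed to 4002 and 2049 CPM. Under library size scaling the split of all genes turned from 1775 higher and 1461 lower to 1048 and 2266 for outer stripe, from 2011 and 2122 to 3645 and 1138 for inner stripe, and from 2778 and 2916 to 5026 and 1409 in the inner medulla, each against cortex.

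**Figure D2:**
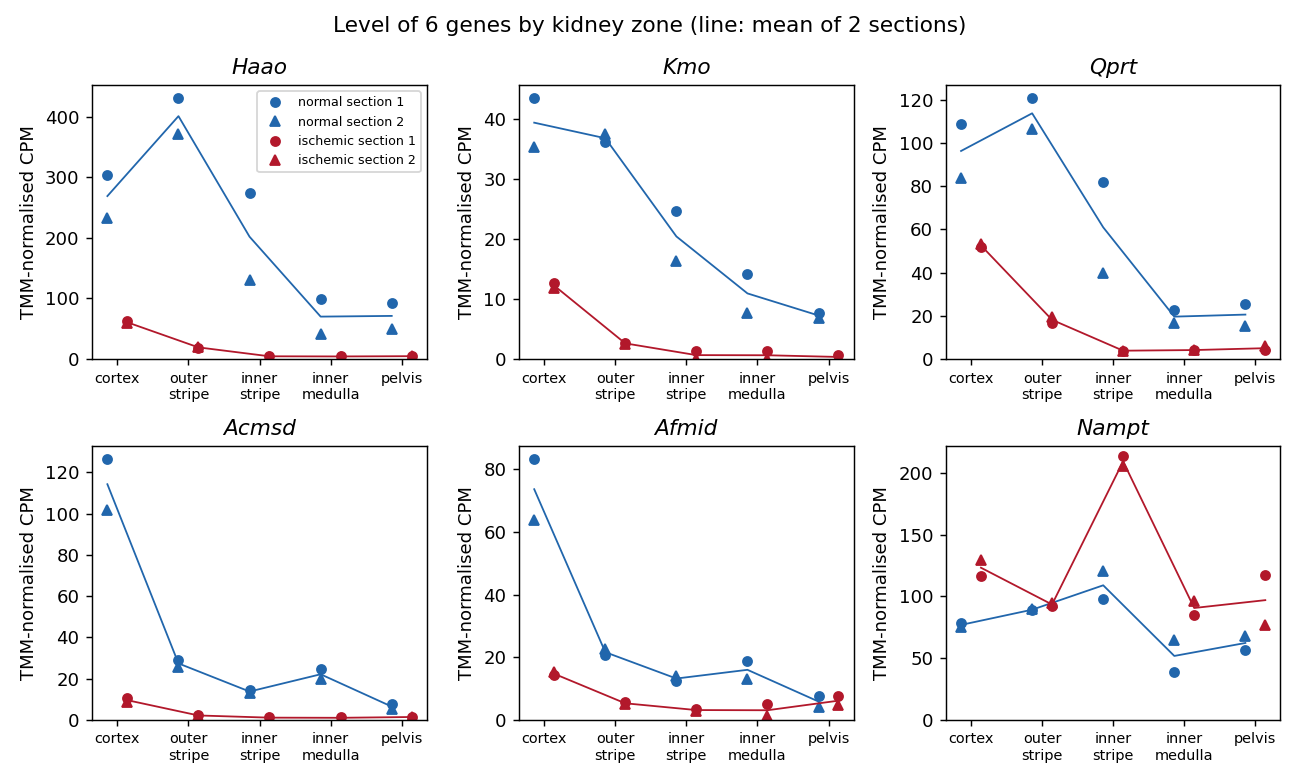
TMM-normalised CPM (linear axis from 0) of 6 of the genes in each kidney zone, with a point per section (circles section 1, triangles section 2), normal in blue, ischemic in red, and a line through the means of the 2 sections. *Acmsd* and *Afmid* drop from cortex to outer stripe in normal sections, *Haao* peaks in the outer stripe, and *Nampt* peaks in the inner stripe of the ischemic sections.

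Zone by zone, the comparison of ischemic with normal kidneys asked whether the fall was shared by the whole kidney. In the cortex 6 of the 10 genes were lower and *Nampt* was higher, beside 40.1% of 14174 genes called (19.9% lower and 20.2% higher). The outer stripe had 7 lower and 0 higher, beside 56.9% (29.5% lower and 27.4% higher). The inner stripe had 7 lower and *Nampt* higher, beside 48.2% (25.9% lower and 22.2% higher). The inner medulla had 7 lower and *Nampt* higher, beside 35.1% (21.2% lower and 13.9% higher). The proximal tubule list also fell in spots scored as inner stripe, from 4002 and 2049 CPM to 153 and 144 CPM. In spots scored as inner medulla it fell from 2126 and 1056 CPM to 162 and 98.7 CPM. The part of this fall in the changes of the 10 genes was not tested. *Acmsd*, *Afmid*, *Haao*, *Kmo*, *Qprt* and *Naprt* were lower in all 4 zones. Of these, *Naprt* lost its call without ischemic section 2 in the cortex (adjusted p = 0.083) and the inner stripe (0.067), and in the inner stripe also with zone scores standardised over all sections (0.26), where the call of *Afmid* was lost too (log2 fold change -0.85, adjusted p = 0.14). *Naprt* lost its call in the inner medulla without normal section 1 (0.22), ischemic section 1 (0.10) or ischemic section 2 (0.14). Scaling by library size changed the all-gene split from 2865 higher and 2824 lower to 3490 and 1674 in the cortex, from 3889 and 4183 to 5583 and 2475 for outer stripe, from 3149 and 3678 to 4714 and 2353 for inner stripe, and from 1970 and 3008 to 2344 and 2301 in the inner medulla.

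*Acmsd* was lower in every zone, with log2 fold changes of -3.57 (SE 0.16) in the cortex, -3.68 (SE 0.22) for outer stripe, -3.71 (SE 0.35) for inner stripe and -4.41 (SE 0.44) for inner medulla. Its cortical level was 127 and 102 CPM in the normal and 10.6 and 8.43 CPM in the ischemic sections. *Afmid* fell likewise, by 2.33, 2.02, 2.06 and 2.28 on the log2 scale in the same order. The 2 genes that were most cortical in the normal kidney had changes that ranged from -4.41 to -3.57 and from -2.33 to -2.02 over the zones.

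*Haao*, *Kmo* and *Qprt* were lower in every zone too, with the change nearest to 0 in the cortex. In the inner stripe the log2 fold changes were -5.48 for *Haao* and -4.95 for *Kmo*. *Haao* went from 305 and 233 CPM to 62.1 and 59.1 CPM in the cortex (log2 fold change -2.15, SE 0.31), and from 431 and 371 CPM to 18.9 and 19.7 CPM in the outer stripe (-4.38, SE 0.35). In the ischemic sections the outer stripe was therefore the lower of these zones, 3.29- and 3.01-fold below the cortex, the reverse of the order in the normal sections. *Kmo* fell from 43.5 and 35.3 CPM to 12.7 and 11.8 CPM in the cortex and from 36.1 and 37.5 CPM to 2.68 and 2.55 CPM in the outer stripe. No *Kmo* UMI was counted in the inner stripe of ischemic section 2.

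*Qprt* kept the largest part of its level in the cortex among the kynurenine enzymes that passed the threshold there, with 109 and 83.8 CPM in the normal and 51.9 and 53.4 CPM in the ischemic sections (log2 fold change -0.88, SE 0.20, edgeR adjusted p = 0.0019). In the outer stripe it went from 121 and 107 CPM to 16.9 and 19.4 CPM (-2.65, SE 0.22), and in the inner stripe from 82.2 and 39.8 CPM to 3.92 and 3.81 CPM (-4.01, SE 0.31). The cortical call of *Qprt* was lost without ischemic section 1 (adjusted p = 0.12) or ischemic section 2 (0.10), each leaving a lone ischemic section, and 12 of 14 alternatives kept it. In the inner medulla the *Qprt* change (-2.19, SE 0.49) turned to 0.11 (edgeR adjusted p = 0.87) when zone scores were standardised over all sections together.

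*Naprt* and *Nmnat1*, the nicotinate and adenylyl steps, had smaller changes. *Naprt* went from 47.6 and 43.3 CPM to 28.8 and 26.1 CPM in the cortex (log2 fold change -0.73, SE 0.15) and from 49.7 and 48.0 CPM to 14.7 and 17.6 CPM in the outer stripe (-1.60, SE 0.16). *Nmnat1* had 18.8 and 18.4 CPM in the normal and 12.3 and 12.6 CPM in the ischemic outer stripe (-0.58, SE 0.18, edgeR adjusted p = 0.0085), a call lost without ischemic section 1 (0.090) or ischemic section 2 (0.066) and with library size scaling (0.55, the highest of 14 alternatives). In the inner stripe it went from 14.7 and 17.0 CPM to 6.16 and 7.04 CPM (-1.24, SE 0.24; -0.69 and adjusted p = 0.12 with zone scores standardised over all sections), and in the cortex the groups, at 17.8 and 14.6 CPM and 14.5 and 13.4 CPM, did not pass.

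*Nampt* rose in the cortex from 78.2 and 75.5 CPM to 117 and 130 CPM (log2 fold change 0.68, SE 0.18) and in the inner stripe from 97.7 and 120 CPM to 213 and 205 CPM (0.95, SE 0.18, edgeR adjusted p = 0.00025). In the outer stripe it was at 88.7 and 89.7 CPM in the normal and 92.4 and 94.4 CPM in the ischemic sections, a log2 fold change of 0.07 (SE 0.18, edgeR adjusted p = 0.77). Of these zones the outer stripe held the most neutrophil RNA in ischemia, with 334 and 338 CPM of the neutrophil list. The list was at 73.1 and 86.5 CPM in the cortex and 99.4 and 107 CPM in the inner stripe. The part of neutrophils in the *Nampt* changes was not tested. The *Nampt* call in the cortex was lost without ischemic section 1 (adjusted p = 0.052) or ischemic section 2 (0.12), and that in the inner medulla without ischemic section 2 (0.096).

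*Nnmt* was lower in the inner medulla, at 41.5 and 10.7 CPM in the normal and 11.01 and 7.40 CPM in the ischemic sections (log2 fold change -1.35, SE 0.42, edgeR adjusted p = 0.019). The adipocyte list fell there from 4806 and 594 CPM to 1.89 and 1.41 CPM. Without normal section 1 the log2 fold change was -0.14 (adjusted p = 0.84, the highest of 14 alternatives), and without the adipocyte-rich spots it was 0.41 (adjusted p = 0.51). The same spots left out, *Nnmt* was higher in the cortex (log2 fold change 0.92, edgeR adjusted p = 0.017), the outer stripe (0.88, 0.0094) and the inner stripe (0.98, 0.011), where the changes with all spots were 0.19, 0.88 and 0.99 and did not pass.

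**Figure D3:**
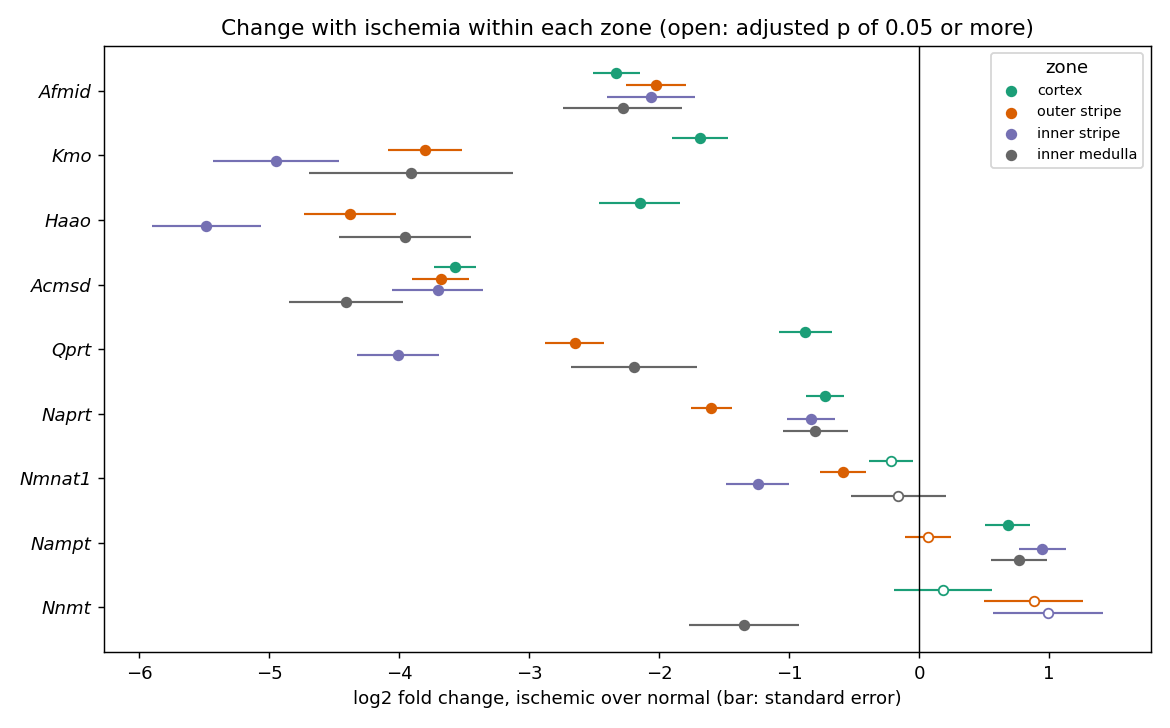
Log2 fold change of 9 of the genes, ischemic over normal, in 4 kidney zones, with standard errors as bars and filled points for an adjusted p under 0.05. *Acmsd* and *Afmid* have points of all zones close together, *Haao*, *Kmo* and *Qprt* have the cortex point nearest to 0, and *Kynu* is left out because its counts in the inner zones were at or near 0.

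Whether the change with ischemia itself differed between the outer stripe and the cortex was tested as an interaction with the section as a block. It did for 5 of the 10 genes, all toward a lower value in the outer stripe, beside 21.5% of all 14174 genes called (13.5% lower and 8.06% higher). The differences of log2 fold changes were -2.25 for *Haao* (SE 0.23, edgeR adjusted p = 1.5e-06), -2.12 for *Kmo* (SE 0.32, adjusted p = 8.5e-05) and -1.79 for *Qprt* (SE 0.18, adjusted p = 1.1e-06). For *Naprt* it was -0.88 (SE 0.17, edgeR adjusted p = 0.0009) and for *Nampt* -0.61 (SE 0.18, edgeR adjusted p = 0.021). For *Acmsd* it was -0.11 (SE 0.22, edgeR adjusted p = 0.83) and for *Afmid* 0.31 (SE 0.27, edgeR adjusted p = 0.48). *Nmnat1* (-0.37), *Kynu* (-1.10) and *Nnmt* (0.68) did not pass either.

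All 14 alternatives kept the calls of *Haao*, *Kmo* and *Qprt*, whereas that of *Naprt* was lost in 2, without ischemic section 1 and with zone scores standardised over all sections (both adjusted p = 0.15), and that of *Nampt* in 7 (highest adjusted p 0.25), among them without ischemic section 1 (0.16), without ischemic section 2 (0.25) and without the neutrophil spots (0.080). Injured tubule markers (*Havcr1*, *Lcn2*, *Krt20*, *Vcam1* and *Krt18*) summed to 2305 and 2261 CPM in the ischemic cortex and to 5273 and 5299 CPM in the ischemic outer stripe. The proximal tubule list was at 2184 and 2245 CPM in the ischemic cortex and at 1084 and 1125 CPM in the ischemic outer stripe, and 4 of its 6 genes had a lower interaction too. The part of these markers in the members' result was not tested. The zone lists themselves moved with ischemia. Over whole sections the cortex list went from 3250 and 2813 CPM to 545 and 502 CPM. The outer stripe list went from 2252 and 1608 CPM to 271 and 277 CPM. In the normal sections the inner medulla list was at 10029 and 8718 CPM in inner medulla spots. In outer stripe spots it was at 1389 and 1185 CPM. In the ischemic sections these values were 3395 and 3508 CPM, and 6612 and 6533 CPM. Spots scored as inner medulla were 5.12% and 8.35% of the normal and 12.2% and 11.5% of the ischemic sections. Whether a zone label marks the same tissue in both groups was not tested. Scaling by library size turned the all-gene split of the interaction to 1928 higher and 1206 lower.

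**Figure D4:**
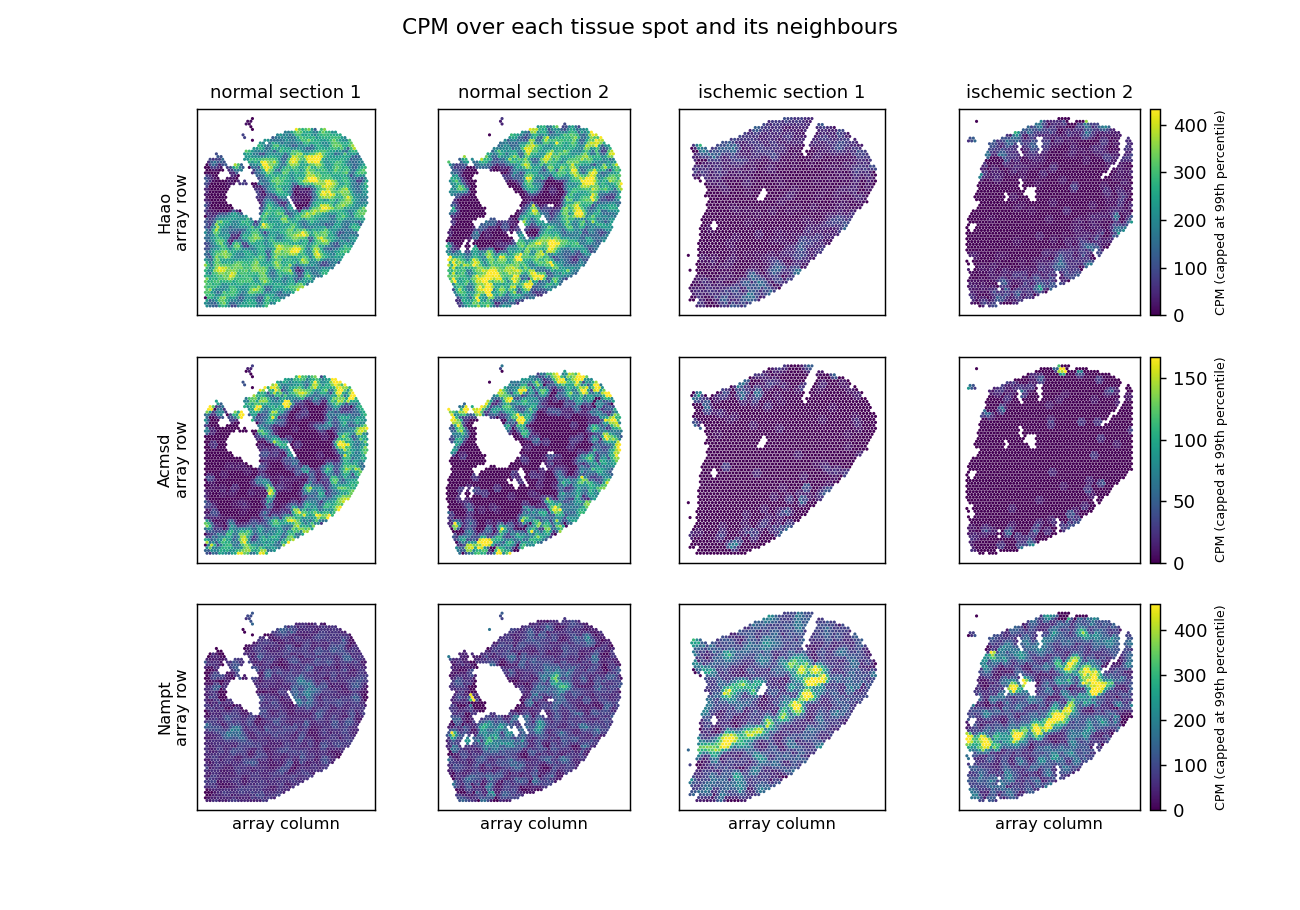
CPM of *Haao*, *Acmsd* and *Nampt* over each tissue spot and its up to 6 neighbours, plotted by array column and array row for the 4 sections on 1 colour scale per gene, capped at the 99th percentile. *Haao* fills cortex and outer stripe of the normal sections, *Acmsd* is highest toward the outer rim there, and in the ischemic sections the highest *Nampt* values form a curved band inside the section (inner stripe level 213 and 205 CPM).

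Within the ischemic cortex, spots were ranked by *Havcr1* over the spot and its neighbours, and the 239 highest spots of each section were set beside the 239 lowest as a description, in CPM of the library total of these spots without TMM scaling. *Havcr1* itself was 3.25- and 4.29-fold higher by construction. *Acmsd* was at 3.52 CPM in the high and 11.4 CPM in the low spots of ischemic section 1. In ischemic section 2 it was at 3.78 and 12.4 CPM. The ratios of 0.31 and 0.30 rest on few UMIs, 12 against 32 and 11 against 25. *Nampt* ran the opposite way, with 136 CPM against 87.8 CPM and 143 CPM against 88.0 CPM, ratios of 1.55 and 1.63. For *Haao* the ratios were 0.73 and 0.44, for *Kmo* 0.64 and 0.45, for *Qprt* 0.66 and 0.77, and for *Afmid* 0.75 and 0.91. Those of *Kmo* rest on 28 against 36 and 24 against 37 UMIs. The 6 proximal tubule markers had ratios on both sides of 1. The endocytic receptor *Lrp2* had ratios of 1.00 and 1.00, the acyl-CoA synthetase *Slc27a2* 1.42 and 1.29, and *Cubn*, a partner of *Lrp2*, 1.08 and 1.14. *Gatm*, the first enzyme of creatine synthesis, had 0.32 and 0.21, the dicarboxylate carrier *Slc13a3* 0.60 and 0.47, and the scaffold protein *Pdzk1* 0.66 and 0.59. The high spots were also deeper, with medians of 14088 and 11820 UMIs per spot against 10595 and 6943.

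The other genes of the pathway were taken from lists of NAD and tryptophan metabolism. Of 48 such genes 42 were tested over whole sections, and 10 were higher and 26 lower in ischemia, with a median log2 fold change of -0.52, beside 31% of all genes called higher and 29.7% lower, with which the counts by list below are also to be compared. The kynurenine pathway is opened by dioxygenases, and *Ido2* among them was at 15.9 and 12.6 CPM in the normal and 2.18 and 2.02 CPM in the ischemic sections (log2 fold change -2.76, SE 0.17, edgeR adjusted p = 2e-06). *Tdo2*, the tryptophan dioxygenase typical of liver, had 5 and 1 UMIs in the normal and 1 and 1 in the ischemic sections, and *Ido1* had 8 and 9 against 1 and 0.

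On the branch to kynurenate, 3 of 4 genes were lower, and *Aadat*, a kynurenine aminotransferase, had 343 and 257 CPM against 13.8 and 12.2 CPM (log2 fold change -4.53, SE 0.18, edgeR adjusted p = 1.8e-07). *Kyat3* and *Kyat1*, aminotransferases as well, had log2 fold changes of -2.31 and -0.61. All 3 genes of the oxidation that follows Acmsd were lower, *Dhtkd1* (-2.55), *Gcdh* (-2.17) and *Aldh8a1* (-1.92). In the salvage list *Nmrk1*, a nicotinamide riboside kinase, was lower (-1.15), the opposite of *Nampt*, while *Nmrk2* had no UMI in any section. Among the nicotinate and last steps, *Nmnat3*, the mitochondrial relative of *Nmnat1*, was higher (0.48) and *Nadsyn1* did not pass. Of the kinases and mitochondrial genes, *Slc25a51*, the mitochondrial NAD carrier, was lower (-0.88), as was *Nadk2* (-0.64), and *Nadk* was higher (0.40).

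Genes that consume NAD did not share a direction, with 6 higher and 5 lower of 13 tested. *Bst1*, an ADP-ribosyl cyclase, had 7.89 and 14.4 CPM against 50.1 and 54.2 CPM (log2 fold change 2.24, SE 0.22, edgeR adjusted p = 2.8e-05), *Parp3* was higher (1.04), and *Sirt3*, the mitochondrial sirtuin, was lower (-1.91). *Aox3*, which oxidises nicotinamide metabolites, was lower (-2.07) on 17 and 26 against 6 and 4 UMIs. Of 8 carriers 6 were lower, among them *Slc5a8*, a monocarboxylate and nicotinate transporter (-3.54), and *Cltrn*, which the tryptophan transporter *Slc6a19* needs at the brush border (-2.24). The amino acid exchanger *Slc7a5* was higher, from 0.57 and 0.87 CPM to 6.45 and 6.77 CPM (log2 fold change 3.22, SE 0.24, edgeR adjusted p = 5.8e-06). Of 5 regulators 4 were lower, among them *Ppargc1a* (-1.38), a coactivator of mitochondrial genes, and *Hnf4a* (-1.09), a transcription factor of proximal tubule identity.

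**Figure D5:**
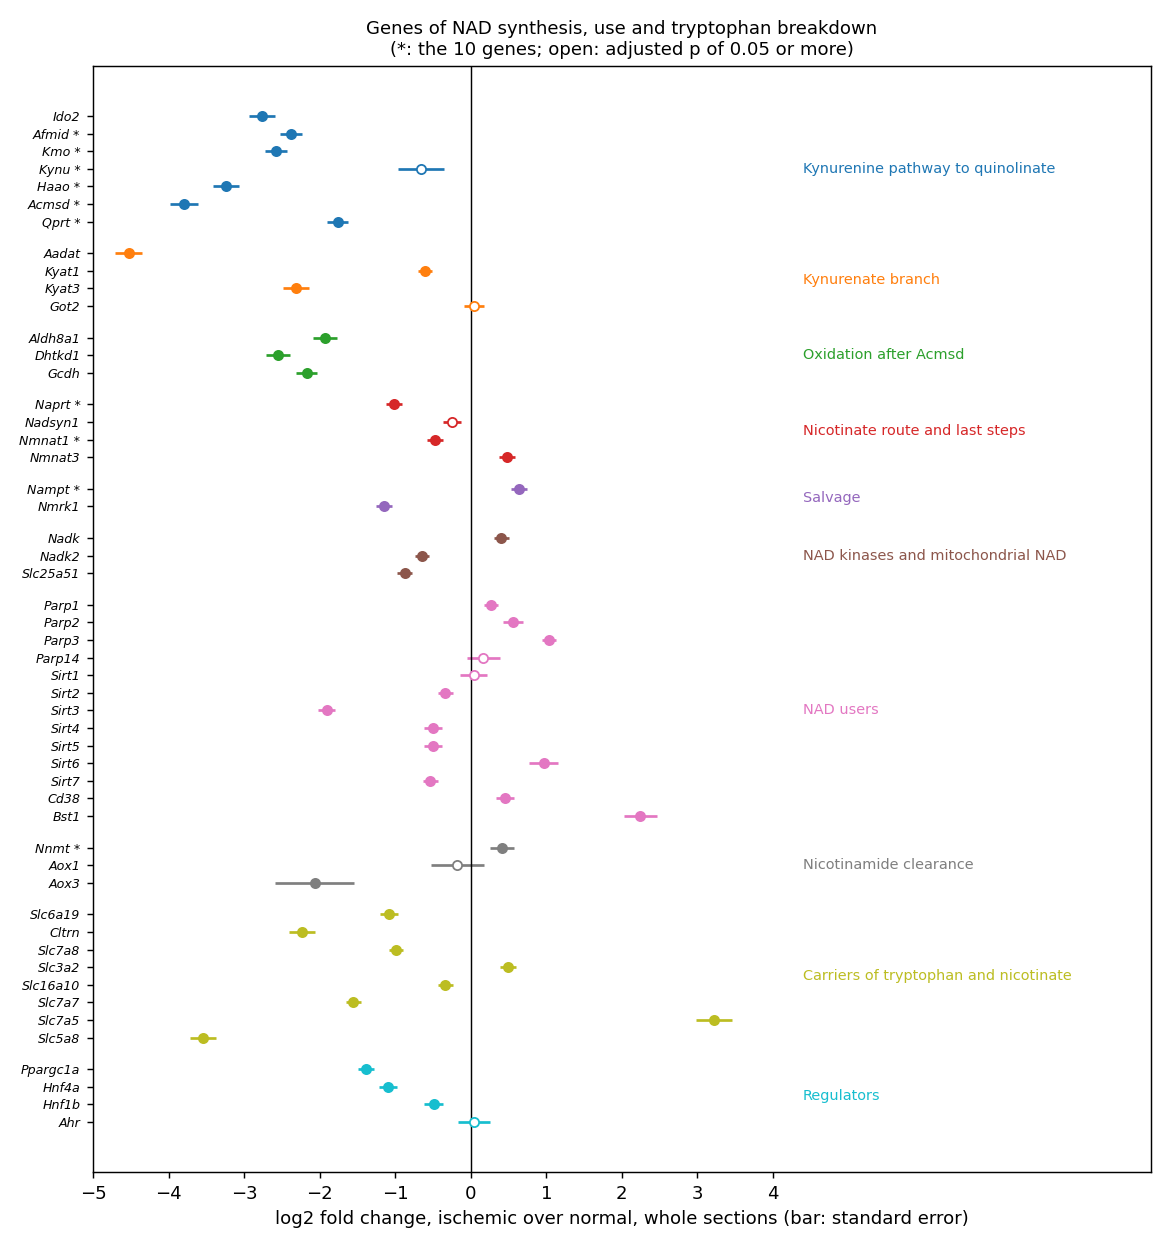
Log2 fold change, ischemic over normal, of the tested genes of the pathway lists over whole sections, except 1 that is not drawn, with standard errors as bars, filled points for an adjusted p under 0.05 and asterisks on the 10 genes. Points of the kynurenine, kynurenate and oxidation lists lie left of 0 except *Got2* at 0.04, and those of the NAD users lie on both sides.

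Over the 20 sums of section and zone, *Haao*, *Kmo* and *Qprt* had like patterns (Pearson's r across sums of log2 CPM of 0.98 for *Haao* with *Kmo*, 0.96 for *Haao* with *Qprt* and 0.95 for *Kmo* with *Qprt*), and *Acmsd* with *Afmid* (0.95). *Nampt* had r between -0.44 and -0.09 with the other members. These sums share sections and depth, so the values are descriptions. Among 8886 genes, the closest to *Haao* were *Pipox*, *Bdh2* and *Fah* (r of 0.996, 0.995 and 0.994), genes close to *Acmsd* included *Fam151a* and *Slc34a1* (0.986 and 0.983), and the closest to *Qprt* were *Uqcr10*, *Cryz* and *Etfb* (0.990, 0.989 and 0.988). *Slc34a1* belongs to the cortex list that placed the spots in zones, so its likeness to *Acmsd* is not independent of the zones. *Kmo* was closest to *Bdh2*, *Iqcg* and *Fbp1* (all 0.982), *Afmid* to *Slc51a*, *Cela1* and *Acmsd* (0.961 to 0.954), and *Naprt* to *Ugt8a*, *Echs1* and *Lamtor2* (0.964 to 0.957). For *Nampt* the highest values were 0.816 for *Qrsl1*, 0.815 for *Ints13* and 0.809 for *Cyp1b1*.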

How the data were processed

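Spatial expression was analysed in 4 Visium sections, 2 normal and 2 ischemic, on 1 slide. The authors sequenced the libraries and ran Space Ranger (version 1.3.0 in the file headers, build mm10 per the processing notes), and the deposited values are raw UMI counts per gene and tissue spot, without normalization. Reads were not realigned, and for the use of strand in counting the sources used here give nothing. Depth was 44528078, 27657481, 31053530 and 25957128 UMIs, and intervals and floors cover counting error only.

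Counts were summed per section, and per section and zone of at least 20 spots. Each spot received the zone whose marker list scored highest over it and its up to 6 neighbours, standardised within the section, with pelvis given to the top 5% of spots with at least 10 pelvis counts. The lists were *Slc5a2*, *Slc5a12*, *Slc34a1*, *Slc22a6*, *Slc22a8* and *Slc12a3* for cortex, *Slc7a13*, *Cyp7b1*, *Serpina1f*, *Slc22a13* and *Atp11a* for outer stripe, for inner stripe *Slc12a1*, *Umod*, *Cldn10* and *Ptger3*, and *Slc14a2*, *Akr1b3*, *Cryab*, *Aqp2* and *Fxyd4* for inner medulla. Tests used edgeR 4.0.16 in R 4.3.3 (quasi-likelihood test after TMM scaling and filterByExpr, with Benjamini-Hochberg adjustment over all genes tested and a threshold of 0.05), with 1 group per condition and zone, or the section as a block for contrasts between zones and their interaction. Tests compared sections or their zone sums, never spots. The tests of ischemic against normal within zones had no section term. The zones of 1 section therefore entered them as separate samples, though they come from the same tissue. Their p-values do not measure the spread between sections alone. The procedure was run on simulated data. These were drawn without section or mouse effects, so they could not check the effect of shared tissue or shared mice. The 10 genes, the other lists and the tests were chosen with earlier results of these data known. Other pathway genes were named by size, up to 3 past the threshold per list, with *Tdo2*, *Ido1* and *Ido2*; *Nadsyn1*, *Got2*, *Slc6a19* and *Nmrk2* were named after their values were seen. *Nnt* was left out because its symbol marks more than 1 row. Alternatives were DESeq2 1.42.0, library size scaling, no low-count filter, each section left out, blocks, other zone rules, a minimum of 500 UMIs per spot, and, chosen after seeing the data, leaving out adipocyte-rich or neutrophil-rich spots. Marker lists of macrophages (238, 283, 213 and 205 CPM over normal sections 1 and 2 and ischemic sections 1 and 2), fibroblasts (211, 289, 473 and 485), endothelium (183, 186, 194 and 204) and T cells (13.5, 23.1, 1.83 and 2.09) were also read. A few items that the naming rules or sequence table would give are not reported here.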

Additional observations from a re-analysis of the deposited data

Results flagged for a closer look

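A test of the difference marked 5 of the 10 genes, whose change with ischemia was not the same in the outer stripe and in the cortex, beside 21.5% of all genes called (13.5% lower). The outer stripe change minus the cortex change was -2.25 on the log2 scale for *Haao*, -2.12 for *Kmo*, -1.79 for *Qprt*, -0.88 for *Naprt* and -0.61 for *Nampt*. The call of *Nampt* was lost in 7 of 14 alternatives and that of *Naprt* in 2. For *Nampt* a rise was called in the cortex and none in the outer stripe, and the other 4 were lower in both zones. With 2 sections a group, no single section could be tested for standing apart.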

How the results depend on the processing

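Of 1214 member values recomputed under an alternative, 1101 kept their direction and their side of the threshold, 66 were no longer past it, 22 became so and 25 changed sign. With a section left out, the count of members past the threshold ranged from 7 to 9 over whole sections, 4 to 7 in the cortex (7 with all sections, 4 without ischemic section 2), 6 to 8 in the outer stripe, 7 to 9 in the inner stripe, 5 to 8 in the inner medulla (8 with all sections, 5 without ischemic section 2), 2 to 4 for outer stripe against cortex, 7 to 8 for inner stripe against cortex, 7 to 9 for inner medulla against cortex and 3 to 5 for the interaction. Standardising zone scores over all sections gave 5 in place of 8 in the inner stripe and 3 in place of 5 for the interaction, and outer stripe against cortex gave 2 in place of 4 in DESeq2 and without the section block; the cause was not tested.

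Of the values that changed sign, *Qprt* in the inner medulla (0.11 with zone scores standardised over all sections) and *Nnmt* in the inner medulla (0.41 without adipocyte spots) had been called, and the others had not been past the threshold. With library size scaling they were *Kynu* (0.12) and *Nmnat1* (0.013) in the cortex, *Nmnat1* in the inner medulla (0.0063), *Naprt* for outer stripe against cortex (-0.049), *Nmnat1* for inner stripe against cortex (0.17) and the *Acmsd* interaction (0.073). With a section left out, *Kynu* ranged from -0.33 to 0.11 in the cortex and -4.61 to 3.22 in the inner stripe, *Nampt* from -0.057 to 0.094 in the outer stripe and *Nmnat1* from -0.32 to 0.029 in the inner medulla. For outer stripe against cortex *Kmo* then ranged from -0.27 to 0.073 and *Nnmt* from -0.41 to 0.36, and *Nmnat1* from -0.28 to 0.12 for inner stripe against cortex. The *Acmsd* interaction was 0.015 with no low-count filter, 0.099 without boundary spots, 0.34 with zone scores standardised over all sections and 0.24 without neutrophil spots. *Nmnat1* was at 0.48 in the inner medulla with zone scores standardised over all sections and at 0.025 for inner stripe against cortex with zones from the spot alone. *Nnmt* for outer stripe against cortex was 0.012 without boundary spots and 0.67 without adipocyte spots, and its interaction -0.024 without adipocyte spots.

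With all sections, the counts over all genes were 5689 in the cortex, 6827 in the inner stripe and 4978 in the inner medulla. They were 3236 for outer stripe against cortex and 3049 for the interaction. Each of these fell by over 1.5 times without ischemic section 1 or 2. In the cortex and for the interaction they rose without normal section 1 or 2, which leaves as many samples in the fit. The cause of the difference was not tested. Without the section block the counts over all genes were 2134 for outer stripe against cortex and 1665 for the interaction. With zone scores standardised over all sections the count in the inner stripe was 4531. The all-gene interaction split was 1809 higher and 1513 lower with no low-count filter, 1599 and 1503 without boundary spots, and 1093 and 1161 with zone scores standardised over all sections. Without normal section 1 the splits were 1592 and 2793 for inner stripe and 1931 and 3155 for inner medulla against cortex.

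The replicate numbers gave only 2 pairs, whose deviations correlated at 0.22 across 15305 genes, which does not show that equal numbers share a mouse. With the replicate block the members past the threshold were 10 over whole sections, where *Kynu* passed (log2 fold change -0.65, edgeR adjusted p = 0.042), with 7 for cortex, 8 for outer stripe, 9 for inner stripe and 8 for inner medulla, while 10089, 6354, 8538, 7182 and 5243 of all genes passed, in the same order. Depth limits *Kynu* and *Nnmt* most, with at most 75 and 206 UMIs in a section.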
